A study of Mus musculus with 9 samples.

Results

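The Ugt2 genes encode UDP-glucuronosyltransferases of family 2, and 8 of them were followed here in mouse liver: Ugt2a3, Ugt2b1, Ugt2b5, Ugt2b34, Ugt2b35, Ugt2b36, Ugt2b37 and Ugt2b38. They were taken by gene name from the 49585 gene rows of the deposited liver table. The table holds 10 rows whose name begins with Ugt2. The others, Ugt2a1, an enzyme of the olfactory epithelium, and Ugt2a2, had 0 reads and 1 read over all libraries. All 8 members had enough reads to be tested, as did 11884 genes in all.

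UDP-glucuronosyltransferases sit in the membrane of the endoplasmic reticulum and move glucuronic acid from UDP-glucuronate onto steroids, bile acids, bilirubin and drugs, which makes them soluble enough for export into bile or blood. The enzymes of the 2B branch are abundant in hepatocytes and are known for conjugating steroid hormones, bile acids and many drugs. Their genes arose by repeated duplication and stand side by side, so that some are near copies of each other.

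RNA was sequenced from livers of male C57BL/6J mice at 14 weeks of age, after ribosomal RNA had been depleted from total RNA. The ground control group (GC) lived at 1 g in Tsukuba, in housing that copied that of the flight. The microgravity group (MG) and the artificial gravity group (AG) were housed on the International Space Station for about 35 days, AG in a centrifuge at 77 rpm that gave 1 g. Each group had 3 libraries, and the flight groups held 6 mice each. The labels do not tie a library to an animal, so each p-value rests on the spread among the libraries themselves, part of which may be technical. Flight mice were killed 2 days after splashdown. Flight mice were bought from the Jackson Laboratory and ground mice from Charles River in Japan, at 5 weeks of age, so the supplier and the flight cannot be told apart in any comparison with GC. The labels name no genetic change or drug in any group.

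The libraries held 6194521 to 8957331 gene counts. Hepatocyte markers were high in all of them, at 78324 to 108923 CPM (counts relative to library totals after TMM scaling) summed over 6 genes. The summed level of 10 skeletal muscle markers was 206 CPM in GC 1, 593 CPM in GC 2 and 417 CPM in MG 2, and 0.450 to 82.2 CPM in the other libraries. The summed level of 10 macrophage markers was 1393 CPM in AG 1 and 273 to 373 CPM elsewhere. Results are therefore also given without GC 1, GC 2 and MG 2, and without single libraries. In whole liver, fewer cells of a type and less RNA per cell cannot be told apart.

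The 8 genes lie on mouse chromosome 5 within 534 kb (GRCm38, coordinates from the deposited table, counted from 1). In order they are Ugt2b34 (86889767 to 86906937), Ugt2b1 (ENSMUSG00000035836, 86916638 to 86926530), Ugt2b35 (87000860 to 87013275), Ugt2b36 (87065927 to 87092555), Ugt2b5 (87124960 to 87140318), Ugt2b37 (87240493 to 87254804), Ugt2a3 (87324972 to 87337195) and Ugt2b38 (ENSMUSG00000061906, 87409942 to 87424203). Ugt2b35 is on the plus strand and the other 7 are on the minus strand. The positions span exons and introns, while the levels below come from exon reads, over 1858 to 4312 exon bases per gene.

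How far reads can be assigned to one member depends on how alike the members are. Ugt2b5, Ugt2b37 and Ugt2b38 are near copies: the coding sequences of Ugt2b5 and Ugt2b38 (GENCODE M21 transcripts) are 97.0% identical, those of Ugt2b5 and Ugt2b37 94.7% and those of Ugt2b37 and Ugt2b38 94.1%. Ugt2b5 and Ugt2b38 differ at 47 of 1590 coding positions, and their first 443 coding bases are the same. Ugt2b1 stands apart, at 71.2% to 74.5% identity to the other 2b members, and Ugt2a3 is 65.7% to 67.8% identical to each of the others. The 60 coding bases in which Ugt2b5 and Ugt2b38 differ most are printed because reads over such bases are what separates these genes. They are bases 1467 to 1526 of the coding sequence, written 5′ to 3′ on the coding strand, with capitals at the 9 positions where Ugt2b5 and Ugt2b38 differ.
Ugt2b5: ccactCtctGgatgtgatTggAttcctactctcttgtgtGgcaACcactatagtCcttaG
Ugt2b37: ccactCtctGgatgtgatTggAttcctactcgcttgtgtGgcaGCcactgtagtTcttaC
Ugt2b38: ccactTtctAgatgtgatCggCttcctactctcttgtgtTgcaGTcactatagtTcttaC

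Of all stretches of 50 bases in the Ugt2b5 transcript, 41.7% also occurred in the transcript of another gene, and 34.8% occurred in that of Ugt2b38. For Ugt2b38 the shares were 37.4% in any other gene and 34.1% in Ugt2b5, and for Ugt2b37 18.3% in any other gene. No such stretch of Ugt2b1 occurred elsewhere. The deposited counts reflect this: uniquely mapped reads were 68.5% of the total exon reads of Ugt2b38, 69.6% for Ugt2b5 and 80.2% for Ugt2b37, but at least 99.7% for the other 5 members. The counts tested are unique exon reads plus multiply mapped reads over exon junctions, so the levels of Ugt2b5, Ugt2b37 and Ugt2b38 are uncertain by the reads they share.

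The regions around the gene starts are also shared among the near copies. RefSeq gives 250 bases upstream of its own start of each gene (GRCm38.p6), and all 8 members matched. The RefSeq start is that of the deposited table for 5 members. For Ugt2b1 and Ugt2b37 it lies 27 and 16 bases inside the gene as the table has it, so that the windows reach that far into the gene, and for Ugt2b5 it lies 22 bases before the table's start. Over the 28 pairs of members, the identity of these windows was 42.2% to 84.8% with a median of 46.7%. The top pairs were Ugt2b37 with Ugt2b38 at 84.8%, Ugt2b5 with Ugt2b38 at 81.5% and Ugt2b5 with Ugt2b37 at 72.6%. The windows of these 3 genes and of Ugt2b1 are printed because Ugt2b1 and Ugt2b38 are the members called lower in the tests below. Ugt2b5 and Ugt2b37 stand beside them as the copies of Ugt2b38 that were not called. Capitals mark a run of 62 bases that Ugt2b5, Ugt2b37 and Ugt2b38 have in common, which begins 68, 85 and 71 bases before their RefSeq starts, or 90, 69 and 71 bases before the starts in the deposited table. All 4 are on the minus strand, at chr5:86926504-86926753, chr5:87140341-87140590, chr5:87254789-87255038 and chr5:87424204-87424453 in the order printed.
Ugt2b1: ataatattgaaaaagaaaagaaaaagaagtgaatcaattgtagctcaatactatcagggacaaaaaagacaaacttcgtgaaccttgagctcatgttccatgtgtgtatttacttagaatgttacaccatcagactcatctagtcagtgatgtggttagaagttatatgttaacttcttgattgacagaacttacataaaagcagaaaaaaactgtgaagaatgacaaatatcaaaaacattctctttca
Ugt2b5: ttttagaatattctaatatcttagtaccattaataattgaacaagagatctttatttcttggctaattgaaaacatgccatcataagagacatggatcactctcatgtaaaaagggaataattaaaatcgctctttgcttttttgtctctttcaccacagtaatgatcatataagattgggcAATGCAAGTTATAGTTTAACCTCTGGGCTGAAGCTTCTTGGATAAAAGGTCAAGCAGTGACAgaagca
Ugt2b37: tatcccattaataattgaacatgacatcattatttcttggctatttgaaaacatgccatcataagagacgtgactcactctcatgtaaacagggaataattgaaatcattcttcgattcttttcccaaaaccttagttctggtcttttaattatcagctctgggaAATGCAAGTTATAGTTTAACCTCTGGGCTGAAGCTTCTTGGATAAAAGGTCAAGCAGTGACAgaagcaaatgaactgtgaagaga
Ugt2b38: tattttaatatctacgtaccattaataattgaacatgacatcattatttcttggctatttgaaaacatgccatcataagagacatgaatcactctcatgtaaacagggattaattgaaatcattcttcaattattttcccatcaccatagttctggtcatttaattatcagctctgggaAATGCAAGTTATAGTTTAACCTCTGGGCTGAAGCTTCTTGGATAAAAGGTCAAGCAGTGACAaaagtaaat

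Motifs of factors known to act on liver genes were searched on both strands of these windows and of 27025 promoters of the same length. The short HNF1 motif GTTAAT was in 6.52% of all promoters and, among the members, in that of Ugt2a3. The C/EBP motif TTGCNNAA was in 9.55% of all promoters and in those of Ugt2b5 and Ugt2b36. The full palindromic HNF1 site (0.0074% of all promoters), the STAT5 motif TTCNNNGAA (7.18%) and the HNF4 motif CAAAGTCCA (0.381%) were in 0 of the 8. None of these letters thus occurred in the printed windows of Ugt2b1, Ugt2b37 and Ugt2b38, which says nothing about the factors themselves.

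Levels can be compared between members only per length. In GC livers the members ranged from 356 ± 36.4 CPM per kb of exon (SD, n = 3) for Ugt2b5 to 2.50 ± 0.03 CPM per kb for Ugt2b37. Between them stood Ugt2b1 at 279 ± 9.16, Ugt2b36 at 248 ± 7.83, Ugt2a3 at 159 ± 14.2, Ugt2b34 at 129 ± 20.7, Ugt2b35 at 54.2 ± 7.18 and Ugt2b38 at 8.58 ± 1.95 CPM per kb. Neighbours in this order did not overlap between libraries, apart from Ugt2a3 and Ugt2b34. In MG livers Ugt2b1 was at 167 ± 24.5 CPM per kb, now below Ugt2b36 at 279 ± 15.7 CPM per kb and overlapping Ugt2a3 at 155 ± 9.65 CPM per kb. Ugt2b38, at 1.96 ± 0.33 CPM per kb, overlapped Ugt2b37, at 1.79 ± 0.38 CPM per kb. In AG livers the order was that of MG, with Ugt2b1 at 238 ± 39.1 CPM per kb and Ugt2b38 at 7.54 ± 3.61 CPM per kb, which did not overlap Ugt2b37. The RPKM values deposited by the authors gave the same order in every group, but they divide by the same exon lengths. These lengths join all transcripts of a gene. For Ugt2b34 they give 4312 bases over 2 transcripts, while its transcript compared above has 3051 bases. The order with other lengths was not tested.

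**Figure D1:**
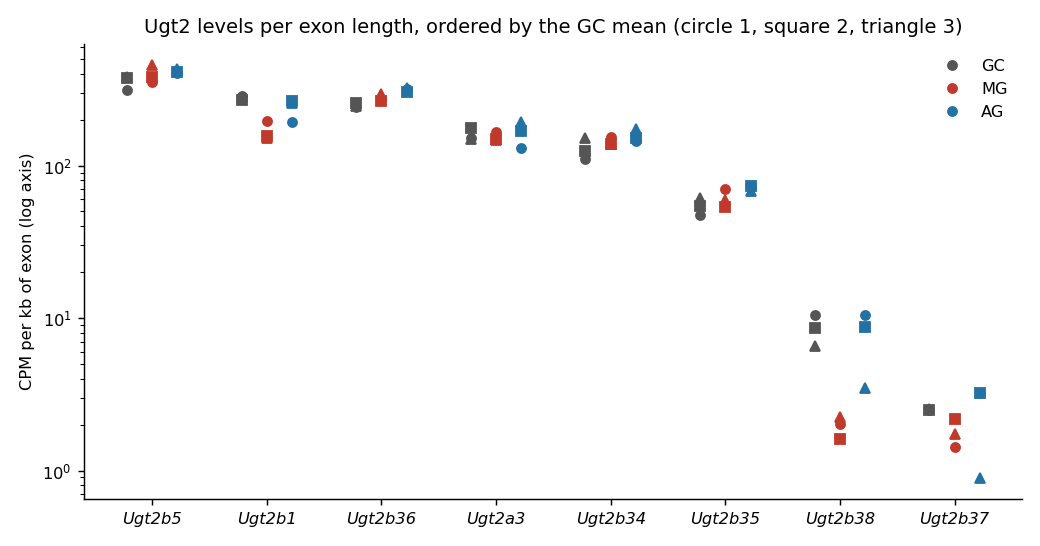
Level of each Ugt2 gene in each library as CPM per kb of exon on a log axis, with genes ordered by their GC mean, colours for the groups and marker shapes for libraries 1 to 3. Ugt2b5 is at the top in every group and Ugt2b37 at the bottom, and the MG points of Ugt2b1 and Ugt2b38 lie below the GC points.

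Summed over the 8 members, the level was 1237 ± 64.1 CPM per kb in GC, 1206 ± 54.3 in MG and 1371 ± 86.9 in AG. The GC libraries overlapped those of MG and AG in this sum, whereas all AG libraries (1278 to 1449.7 CPM per kb) lay above the MG libraries (1149 to 1256 CPM per kb). Ugt2b1 made up 22.6 ± 1.69% of the summed level in GC, 13.9 ± 2.06% in MG and 17.3 ± 2.03% in AG. Ugt2b5 made up 28.8 ± 1.50% in GC, 32.9 ± 3.78% in MG and 30.3 ± 1.21% in AG.

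MG against GC compares livers of mice that lived in microgravity with those of ground mice. Ugt2b1 and Ugt2b38 fell, and the other 6 members did not pass the test. Ugt2b1 went from 718 ± 23.6 CPM in GC to 430.4 ± 63.2 CPM in MG (SD, n = 3), and Ugt2b38 from 16.2 ± 3.69 to 3.70 ± 0.62 CPM. In edgeR's quasi-likelihood test over all 9 libraries, with Benjamini-Hochberg adjustment over all tested genes and a threshold of 0.05, 2 of 8 members were called. Of all tested genes 1.39% were called, and 0.841% were called lower. The median log2 fold change of the members was 0.06, beside 0.01 for all tested genes, with 4 members above 0 and 4 below.

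Ugt2b1 is a major hepatic member, whose rat namesake conjugates bisphenol A. Its level was 733, 691 and 729 CPM in GC 1, GC 2 and GC 3, and 503, 399.9 and 388 CPM in MG 1, MG 2 and MG 3. Every MG library was below every GC library, and MG 1 was the highest of the MG libraries. The log2 fold change was -0.74 ± 0.14 (SE), with an adjusted p of 0.0318 in edgeR's test, which ranked it 111th by p among the 165 called genes. Nearly all of its exon reads mapped uniquely, and no shared stretch was found, so its value holds almost no reads shared with other members.

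Ugt2b38 had few reads: 169, 104 and 83 in the 3 GC libraries and 34, 24 and 32 in the 3 MG libraries. As levels these were 19.8, 16.4 and 12.5 CPM in GC and 3.84, 3.02 and 4.23 CPM in MG. The groups did not overlap, and the MG libraries lay close together. The log2 fold change was -2.13 ± 0.36, with an adjusted p of 0.0203 in edgeR's test. Uniquely mapped exon reads of Ugt2b38 were 158, 102 and 79 in GC and 34, 23 and 32 in MG. In a fit of unique exon reads alone its log2 fold change was -2.09 ± 0.36 (adjusted p 0.0222 in edgeR's test), and in one of total exon reads -1.98 ± 0.37 (adjusted p 0.0318 in edgeR's test). The calls of Ugt2b1 and Ugt2b38 thus held with each kind of exon read counted (for Ugt2b1 adjusted p 0.0280 with unique and 0.0353 with total exon reads in edgeR's test).

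Ugt2b5, the near copy of Ugt2b38 and the member with the highest level, was at 584, 694 and 707 CPM in GC and at 655, 709 and 853 CPM in MG. These groups overlapped, and its log2 fold change was 0.16 ± 0.12 (adjusted p 0.626 in edgeR's test). As a share of the reads of Ugt2b5 in the same library, those of Ugt2b38 were 3.39%, 2.36% and 1.76% in GC and 0.587%, 0.426% and 0.495% in MG. This share did not overlap between GC and MG. It comes from the same counts as the 2 fold changes and restates them. In AG 1, AG 2 and AG 3 the share was 2.61%, 2.18% and 0.820%. Ugt2b37, the other near copy, had 30 to 40 reads per library in GC and 24 to 33 in MG, or 4.69 to 4.80 CPM and 2.71 to 4.15 CPM. Its libraries did not overlap, but its log2 fold change of -0.48 ± 0.40 did not pass the test, and an interval of 2 SE ran from -1.28 to 0.31.

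The remaining members had log2 fold changes close to 0. Ugt2b36 was at 496, 528 and 508 CPM in GC and 564, 549 and 611 CPM in MG, without overlap, at 0.17 ± 0.09 (adjusted p 0.434 in edgeR's test). Ugt2b35 (0.17 ± 0.12), Ugt2b34 (0.15 ± 0.13) and Ugt2a3 (-0.04 ± 0.14) overlapped between the groups. Ugt2a3, whose human counterpart conjugates bile acids, was at 316 to 371 CPM in GC and 314 to 351 CPM in MG. In all, 1 member was higher in every MG library than in any GC library and 3 were lower. Over all tested genes 11.9% were higher and 11.3% lower in this way, 23.2% together.

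**Figure D2:**
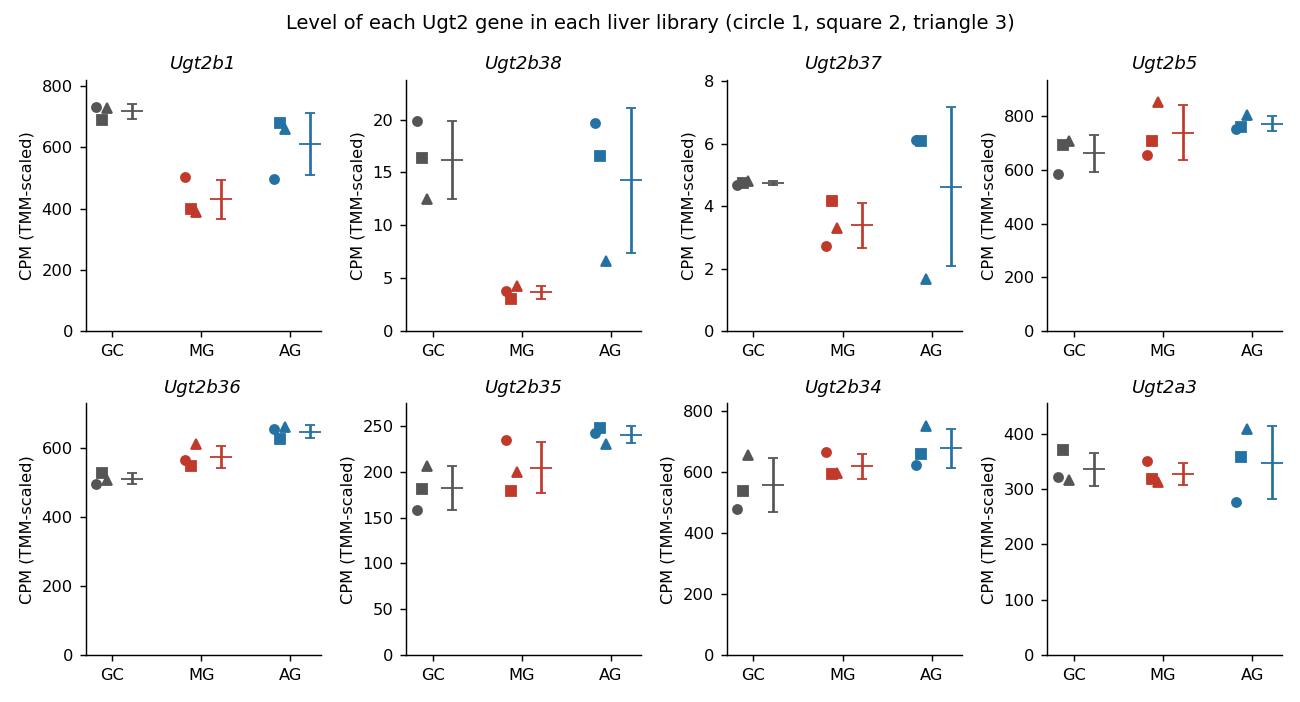
Level of each Ugt2 gene in CPM in the 9 libraries, with circles, squares and triangles for libraries 1, 2 and 3 of a group and, beside them, the group mean with its SD as bars. For Ugt2b1 and Ugt2b38 all MG libraries lie below all GC libraries, and for Ugt2b5, Ugt2b34, Ugt2b35 and Ugt2a3 the GC and MG points overlap.

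Each call ended in 5 of the 6 fits that left out a GC or MG library. Calls over all genes also became fewer in these fits. The 165 calls became 52, 21 and 51 without GC 1, GC 2 and GC 3, and 108, 28 and 63 without MG 1, MG 2 and MG 3. Without single GC or MG libraries the log2 fold change of Ugt2b1 was -0.86 to -0.67, and its adjusted p in edgeR's test rose to between 0.0970 and 0.146 when GC 1, GC 2, GC 3, MG 2 or MG 3 was left out. That of Ugt2b38 was -2.30 to -1.96, and its adjusted p rose to between 0.0614 and 0.105 when GC 1, GC 2, MG 1, MG 2 or MG 3 was left out. Ugt2b1 was still called without MG 1, and Ugt2b38 without GC 3 (adjusted p 0.0289 and 0.0464 in edgeR's test). Without the 3 libraries richest in muscle transcripts, which leaves 1 GC library, the log2 fold changes were -0.72 for Ugt2b1 and -1.63 for Ugt2b38, and 0 genes of all were called by edgeR. Both fold changes were below 0 in each of these fits.

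**Figure D3:**
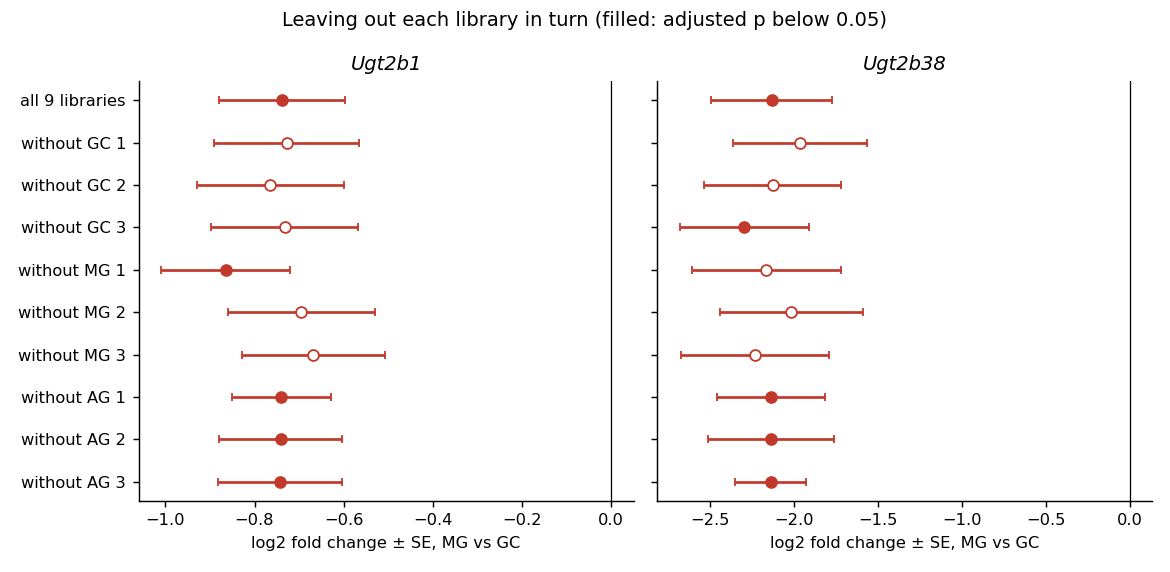
Log2 fold change of Ugt2b1 and Ugt2b38 in MG against GC, with its SE, from all 9 libraries and with each library left out in turn, where filled points have an adjusted p below 0.05. All points lie left of 0, and most fits without a GC or MG library give open points.

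Markers of other cell types also differed between MG and GC in part. The summed level of 6 bile duct markers was 37.2 to 47.3 CPM in GC, 28.4 to 28.9 CPM in MG and 38.9 to 56.3 CPM in AG, with 0 of 5 tested members called. The 5 small intestine markers summed to 92.3 to 157 CPM in GC and 550.0 to 988 CPM in MG, with 1 of 2 tested called. This was Apoa4 (adjusted p 0.00577 in edgeR's test), which liver also expresses and which gave 487 to 904 CPM in MG. Fabp2, not called, was at 33.1 to 48.7 CPM in GC and 62.7 to 103 CPM in MG. The defining gene Sis was at 0 in every library. The 5 exocrine pancreas markers, mostly Cela1, summed to 8.66 to 10.4 CPM in GC and 3.52 to 5.94 CPM in MG. In AG they summed to 4.73 to 7.35 CPM. Prss2, Cpa1, Pnlip and Amy2a5 were at 0 in every library but GC 1, where each was at 0.235 to 0.469 CPM. The 5 kidney markers summed to 2.10 to 3.31 CPM in GC and 0.791 to 1.72 CPM in MG, mostly from Lrp2. Of this list Kap and Umod were at 0 in every library. The 10 macrophage markers summed to 329 to 369 CPM in GC and 273 to 327 CPM in MG, with 0 of 10 called. In the sums of the bile duct, pancreas, kidney and macrophage lists every MG library was thus below every GC library, and in the intestine sum above. Of single tested genes 11.3% were lower and 11.9% higher in this way, Ugt2b1 and Ugt2b38 among the lower. Of the bile duct markers Spp1 alone was so (18.9 to 22.7 CPM in GC, 15.4 to 16.1 CPM in MG). Of the macrophage markers Clec4f and Csf1r were so, and the others overlapped. The sums of fat markers (4 genes, 3.30 to 16.9 CPM in GC and 3.73 to 14.0 CPM in MG), hepatocyte markers and skeletal muscle markers overlapped. Of the 6 hepatocyte markers 0 were called, but Alb was higher in every MG library (71397 to 80889.5 CPM) than in any GC library (56750 to 68494 CPM). Apoa1 and Serpina1c were lower in this way, and the other hepatocyte markers overlapped. The part of these markers in the Ugt2 results was not tested.

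The table that the authors deposited also holds their own comparisons. In the authors' deposited table Ugt2b38 has a signed fold of -4.35 from GC to MG with an FDR p of 6.92e-06. For Ugt2b1 the authors' deposited table gives -1.66 with an FDR p of 0.00565. For the other 6 members the FDR p in the authors' deposited table is 1.

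AG against GC compares flown mice kept at 1 g with ground mice, and it uses the same GC libraries as MG against GC. None of the 8 members was called by edgeR's test, as was 0% of all tested genes. In the same test 2 members and 1199 genes (10.1% of all tested) had an unadjusted p below 0.05. Those members were Ugt2b36 and Ugt2b35, which stood higher in AG. Ugt2b36 was at 655, 626 and 662 CPM in AG, above all GC libraries (496 to 528 CPM), with a log2 fold change of 0.34 ± 0.09 and an adjusted p of 0.254 in edgeR's test. DESeq2, an alternative test, called Ugt2b36 at an adjusted p of 0.0105, among 0.993% of genes called. Ugt2b35 was at 243, 248 and 230.4 CPM in AG and 158, 181 and 207 CPM in GC, with a log2 fold change of 0.40 ± 0.12 and an adjusted p of 0.344 in edgeR's test.

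In AG livers Ugt2b1 was at 496, 680.4 and 659 CPM, with AG 1 well below the other libraries of its group. All were below the lowest GC library, at 691 CPM, and the log2 fold change was -0.23 ± 0.14 (adjusted p 0.599 in edgeR's test). AG 1 was also the library rich in macrophage markers, and without it the log2 fold change was -0.10 ± 0.12 (adjusted p 0.871 in edgeR's test). Ugt2b38 was at 19.7, 16.5 and 6.59 CPM in AG, so AG 1 and AG 2 lay within the GC range and AG 3 below it. Its log2 fold change of -0.19 ± 0.32 was 0.15 ± 0.20 without AG 3. Ugt2b37 likewise was at 6.10 and 6.09 CPM in AG 1 and AG 2 and at 1.69 CPM, or 11 reads, in AG 3. Ugt2b5 (0.22 ± 0.12), Ugt2b34 (0.28 ± 0.13) and Ugt2a3 (0.05 ± 0.14) did not pass the test. Over the family 3 members were higher in every AG library than in any GC library and 1 was lower, beside 7.21% and 7.17% of all tested genes. The members' median was 0.14, beside 0.01 for all tested genes.

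The comparison of MG with AG sets the flight groups against each other, which share supplier, launch and landing and differ in gravity on board. All 8 log2 fold changes were below 0, with a median of -0.20 beside 0.00 for all tested genes, and edgeR's test called 0 of 8 members and 0% of all tested genes. An unadjusted p below 0.05 was reached by 2 members and 1165 genes (9.80% of all tested). Ugt2b38, at 3.02 to 4.23 CPM in MG and 6.59 to 19.7 CPM in AG, had a log2 fold change of -1.95 ± 0.36 and an adjusted p of 0.155 in edgeR's test. It was called by DESeq2 (adjusted p 0.000131, where 0.816% of genes were called), without a filter on low counts (0.00839 by edgeR, where 0.203% were called) and without AG 3 (-2.29 ± 0.22, 0.00237 by edgeR, where 1.07% were called). In the authors' deposited table its fold from MG to AG is 3.79 with an FDR p of 0.000336. For Ugt2b1, MG and AG overlapped, since AG 1 at 496 CPM was below MG 1 at 503 CPM, and the log2 fold change was -0.51 ± 0.14 (adjusted p 0.322 in edgeR's test). Ugt2b36, at 549 to 611 CPM in MG and 626 to 662 CPM in AG, did not overlap either, at -0.17 ± 0.09 (adjusted p 0.545 in edgeR's test). Of the members 0 were higher in every MG library than in any AG library and 2 were lower, beside 6.4% and 5.96% of all tested genes.

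**Figure D4:**
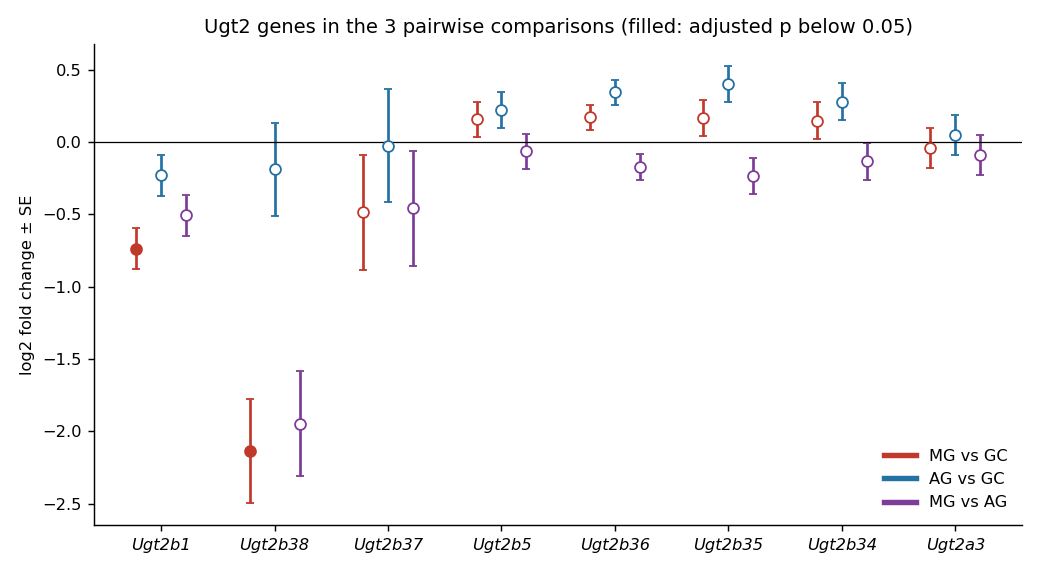
Log2 fold change of each Ugt2 gene with its SE in the 3 pairwise comparisons, where filled points have an adjusted p below 0.05 in edgeR's test. Ugt2b1 and Ugt2b38 are filled in MG vs GC, at -0.74 and -2.13, and all points of MG vs AG lie below 0.

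With MG and AG taken as 1 flight group of 6 libraries, 0 of 8 members were called against GC by edgeR's test, where 1% of all tested genes were called. An unadjusted p below 0.05 was reached by 4 members and 1485 genes (12.5% of all tested). Ugt2b1 was at 521 ± 125 CPM in flight (SD, n = 6), with a log2 fold change of -0.48 ± 0.12 and an adjusted p of 0.0995 in edgeR's test. Ugt2b38 had a log2 fold change of -1.16 ± 0.28 (adjusted p 0.0970), with flight libraries from 3.02 to 19.7 CPM that overlapped GC. Ugt2b36 was higher and Ugt2b1 lower in all 6 flight libraries than in any GC library, as were 3.44% and 3.55% of all tested genes. Ugt2b36 was at 0.26 ± 0.08 (adjusted p 0.184), and Ugt2b35 was at 0.28 ± 0.11 (adjusted p 0.308). DESeq2 called Ugt2b1, Ugt2b36 and Ugt2b38, among 2.72% of genes, and edgeR without a filter called Ugt2b1 and Ugt2b38, among 1.15%. Without AG 1 edgeR called Ugt2b38 at an adjusted p of 0.0480, and without AG 3 at 0.0219, where 1.19% and 1.88% of genes were called.

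Depletion of ribosomal RNA keeps unspliced transcripts, so reads in introns give another readout of the same genes. Intron reads of Ugt2b1 were 62.6, 70.8 and 65.0 CPM of intron reads in GC, 47.1, 45.8 and 43.7 in MG, and 29.7, 60.1 and 51.4 in AG. As with its exon reads, all MG libraries were below all GC libraries. AG 1 was the lowest library in intron reads, though not in exon reads. In an edgeR fit of unique intron reads the log2 fold change of Ugt2b1 was -0.53 ± 0.21 in MG vs GC (adjusted p 0.374) and -0.49 ± 0.21 in AG vs GC (adjusted p 0.602). Of the 6 members tested on intron reads, 0 were called in any pairwise comparison by edgeR, beside 0.602% of 10630 genes in MG vs GC, 0% in AG vs GC and 0.00941% in MG vs AG; Ugt2b1 alone had an unadjusted p below 0.05, in both comparisons with GC. Between MG and AG the intron value of Ugt2b1 was -0.05 ± 0.21, beside -0.51 ± 0.14 from exon counts; the difference between these values was not tested.

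Ugt2b36 had intron reads at 0.34 ± 0.21 in MG vs GC and -0.07 ± 0.21 in AG vs GC on the log2 scale, beside exon values of 0.17 ± 0.09 and 0.34 ± 0.09. Ugt2b5 had 0.13 ± 0.18 and -0.21 ± 0.18 from introns. Ugt2b38 had 0 to 13 intron reads per library and Ugt2b37 0 to 2, too few to test. The intron reads of Ugt2b38 were 10, 5 and 6 in GC, 7, 2 and 0 in MG, and 8, 13 and 5 in AG. Intron reads made up 4.54% of the exon and intron reads of Ugt2b1 and 19.4% of those of Ugt2b5. The strand of the reads was not stated to be used in counting, so reads of transcripts on the other strand could be among them.

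**Figure D5:**
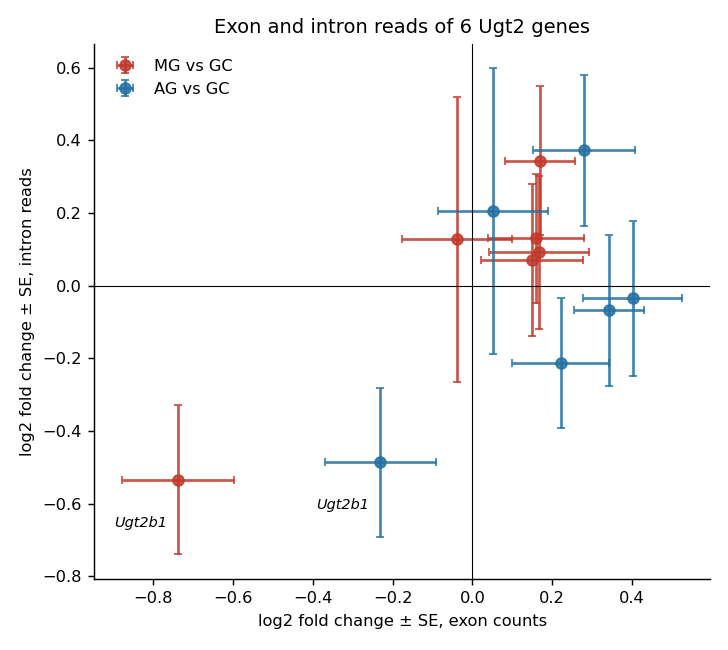
Log2 fold change from intron reads against that from exon counts, with SE bars on both axes, for the 6 Ugt2 genes with enough intron reads, in MG vs GC and AG vs GC. The points of Ugt2b1 lie below 0 on both axes in both comparisons, and those of the other 5 genes lie between -0.21 and 0.37 on the intron axis.

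Other genes of glucuronidation were taken from a list of 48, of which 45 were tested. In MG vs GC 65 of all 11884 tested genes were called higher and 100 lower, 1.39% together. Of the 45 genes 2 were called higher, 0 lower and 43 were not called. The median of the 45 was 0.20, beside 0.01 for all tested genes. Both called genes belong to the UGT1 and UGT3 enzymes, of which 8 of 11 were tested. Ugt1a1, the enzyme that conjugates bilirubin, was at 91.2, 88.7 and 99.2 CPM in GC, 131, 157 and 158 CPM in MG, and 96.7, 120 and 127 CPM in AG. Its log2 fold change in MG vs GC was 0.68 ± 0.12, with an adjusted p of 0.0238 in edgeR's test. The Ugt1a genes share their last exons, and uniquely mapped reads were 7.24% of its exon reads, so its level is uncertain by that sharing.

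Ugt3a2, whose human counterpart uses UDP-glucose and UDP-xylose in place of UDP-glucuronate, rose from 298 ± 11.6 CPM in GC to 425 ± 11.2 CPM in MG. Its log2 fold change was 0.51 ± 0.10, with an adjusted p of 0.0350 in edgeR's test. Ugt1a1 and Ugt3a2 thus moved the opposite way to Ugt2b1 and Ugt2b38 in the same libraries. Ugdh, which makes UDP-glucuronate, had a log2 fold change of -0.16 ± 0.10 (adjusted p 0.532), and Ugp2, which makes the UDP-glucose that Ugdh uses, 0.12 ± 0.12 (adjusted p 0.702). None of the 7 genes of UDP-glucuronate supply, the 4 of glucuronide cleavage and reuse, the 7 of glucuronide export and uptake and the 19 regulators of UGT genes was called. In AG vs GC, MG vs AG and flight vs GC, 0 of the 45 genes were called, beside 0%, 0% and 1% of all tested genes. The calls of Ugt1a1 and Ugt3a2 did not both hold in any fit without a GC or MG library, where 0 or 1 of the 45 genes were called.

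For each member the 2 genes with the most similar pattern were found by Pearson's r of log2 CPM over the 9 libraries, among the 8584 genes that averaged 50 reads or more per library. The libraries are shared by all genes and fall into 3 groups, so these values only describe likeness. Closest to Ugt2b1 were Cyp4v3, a cytochrome P450 (r = 0.97), and Gstm6, a glutathione transferase (r = 0.97), which fell from 63.3 ± 2.99 CPM in GC to 37.8 ± 3.14 CPM in MG (adjusted p 0.0255 in edgeR's test). Closest to Ugt2b38 were Tppp, a microtubule-binding protein (r = 0.96), and Dazap1, an RNA-binding protein (r = 0.95), which fell in MG vs GC (adjusted p 0.0200 in edgeR's test). Closest to Ugt2b36 were Foxo1, a transcription factor under insulin control (r = 0.98), and Ctsb, cathepsin B (r = 0.95).

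Ugt2b35 was most like Slc2a9, a urate transporter (r = 0.96), and Abcc2, the exporter of conjugates into bile (r = 0.94). Ugt2b5 was most like Rack1, a ribosomal scaffold protein (r = 0.95), and Ephx1, the microsomal epoxide hydrolase (r = 0.92). Ugt2a3 was most like Cox7b, a subunit of cytochrome c oxidase, and Homer2, a scaffold protein. Ugt2b34 was most like Nudt19 and Eif3l, and Ugt2b37 most like Trim8 and Ddx54. Over all members r was 0.91 to 0.98. These genes were picked for the highest r among 8584, so high values follow from the choice. Gstm6 and Dazap1 were likewise picked for likeness to members that fell in MG vs GC. By Spearman's rank correlation 2 of the 16 named genes stayed among the closest. Among the members themselves, Ugt2b1 and Ugt2b38 had r = 0.72, and Ugt2b34 and Ugt2b35 had r = 0.83.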

How the data were processed

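Gene expression was measured in 9 liver libraries, 3 in each of GC, MG and AG. The authors deposited 1 table of 49585 genes with whole-number counts per gene and library. Per the file headers, separate columns give reads in exons, in introns and over exon junctions, each as unique and as total reads. The deposited expression values, which were the counts tested, equal unique exon reads plus multiply mapped junction reads in 100% of rows. The authors' deposited RPKM, over the same exon lengths, was set beside the order of levels. The p-value of the authors' own test and its signed fold, a score here, are copied from the deposited table, whose headers name an EDGE test. The submitters' processing notes name GRCm38 and mm10. Which aligner and counter were run, and whether with strand, is not given in the sources used here. The table's other 72 columns of per-library values were not used.

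Genes were kept by edgeR's filterByExpr and scaled by TMM. They were fitted by the quasi-likelihood model with 1 mean per group (6 residual degrees of freedom, biological coefficient of variation 16.7%). Groups were compared with glmQLFTest at a Benjamini-Hochberg adjusted p below 0.05. Intron reads had their own fit. Library totals of 6194521 to 8957331 make 3 reads worth 0.335 to 0.484 CPM. This covers counting error only, since no step run here marked PCR copies. The script was tested on simulated data.

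The members, gene lists, motifs, rule for named genes and alternatives were chosen with earlier results of these data known. The rule names all members, the 2 genes most like each, pathway genes called in any comparison, and Ugt1a1, Ugdh and Ugp2. Alternatives were other scalings (RLE, upper quartile, none), filters (none, or CPM above 1 in 3 libraries) and tests (DESeq2, limma-voom, robust setting). Others were a block for library number, fits without the groups not compared, unique or total exon reads, and left-out libraries. Protein identity had been planned; identity of coding sequences from GENCODE M21 transcripts took its place, with a match score of 1, a mismatch of -1 and gaps of -4 and -0.5 in Biopython. GC 1, GC 2 and MG 2 were left out together for their muscle transcripts. Tools were Python 3.11.15 with Biopython 1.88, matplotlib 3.10.9 and pandas 2.3.3, and R 4.3.3 with DESeq2 1.42.0, limma 3.58.1 and edgeR 4.0.16.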

Additional observations from a re-analysis of the deposited data

How the results depend on the processing

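Of 728 alternative values of the 32 member fold changes, which include fits of intron reads, 676 kept direction and side of the threshold. Of the rest 14 lost a call, 11 gained one, and 27 that were not called in either fit changed sign, while 0 called values reversed. A call could be lost only for Ugt2b1 and Ugt2b38 in MG vs GC, the values called in the main fit. There 15 of 23 alternative values kept the call for Ugt2b1 and 16 of 22 for Ugt2b38. For MG vs GC 2 members were called; this was 1 with the replicate block, where Ugt2b1 had an adjusted p of 0.0629, 0 to 2 with single libraries left out and 0 without GC 1, GC 2 and MG 2. For AG vs GC the count of 0 became 1 with DESeq2. For MG vs AG it became 1 without a filter, 1 with DESeq2, and 0 to 1 with single libraries left out. For flight vs GC it became 2 without a filter, 3 with DESeq2, and 0 to 1 with single libraries left out. The block for library number changed no other member's call. Deviations from the group means had correlations of -0.28 to 0.48 between same-numbered libraries, with 5 of 9 pairs above 0.1. Between libraries of different number they were -0.59 to 0.38, with 7 of 18 pairs above 0.1. These ranges overlap and do not settle whether library numbers pair the samples.

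Of the 45 pathway genes, 2 were called in MG vs GC, 4 in a fit of only the groups compared, 1 with total exon reads, 0 to 4 with single libraries left out and 0 without GC 1, GC 2 and MG 2. In AG vs GC DESeq2 called 2, beside 0.993% of all tested genes. In MG vs AG 0 to 1 were called with single libraries left out, where 0 to 130 of all genes were called. In flight vs GC 2 were called without scaling, 1 without a filter, 6 with DESeq2, 1 with the replicate block, and 0 to 2 with single libraries left out. Over all genes the flight counts were 130 without scaling, 215 without a filter, 323 with DESeq2 and 130 with the replicate block. They were 119 in the main fit and 0 to 229 with single libraries left out. By Spearman's rank correlation 2 of the 16 genes most like a member stayed among them. Over all genes 165 were called in MG vs GC, with 394 by DESeq2, 278 without a filter, 375 in a fit of only the groups compared, and 21 to 290 with single libraries left out. Fits with fewer libraries have fewer degrees of freedom; the cause of the other shifts was not tested. The low counts of Ugt2b37 and Ugt2b38 limit what can be seen for them.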
